A study of Rattus norvegicus with 244 samples.

Results

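RNA from brain tissue carries the RNA of the blood and vessels in it. Hba-a1, Hbb-b1, Hbb, Alas2, Pf4, Selp and Emcn were followed in the rat raphe and somatomotor cortex after spinal cord injury, after a sham operation and without an operation (naive). The question was how residual blood separates these 3 conditions. These 7 genes, of 10969 genes with a symbol of their own on the arrays, were taken by name. They were chosen with earlier results of these data known. Each was read from the brightest probe set annotated to that gene alone, and each had 1 such probe set. All 7 passed the filter on dim probe sets in both regions.

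Haemoglobin is a tetramer of alpha and beta chains, and red cells carry it in great amounts. Hba-a1 encodes an alpha chain, and Hbb-b1 and Hbb encode adult beta chains. Alas2, on the X chromosome, encodes the erythroid enzyme that starts haem synthesis. Maturing red cells lose their nucleus but keep globin mRNA for a time as reticulocytes, so globin RNA in brain extracts is usually read as a mark of blood left in the vessels. Pf4 encodes platelet factor 4, a chemokine stored in platelet granules. It is also transcribed by macrophages of the brain's borders. Selp encodes P-selectin, an adhesion receptor for leukocytes that platelets and endothelium store and expose when activated. Emcn encodes endomucin, a sialomucin of the endothelium of capillaries and veins.

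In the RefSeq annotation of the GRCr8 assembly, Hba-a1 (gene ID 25632) lies on chromosome 10 at 15841724 to 15842580. Hbb-b1 (361619) lies on chromosome 1 at 167636064 to 167643577, and Hbb (24440) at 167662310 to 167663721. Alas2 (25748) lies on chromosome X at 22890650 to 22914046. Pf4 (360918) lies on chromosome 14 at 17582477 to 17583392, and Selp (25651) on chromosome 13 at 79009379 to 79044994. Emcn (295490) lies on chromosome 2 at 228564445 to 228644370. Hba-a1 was read on array type B, Emcn on type C and the other members on type A. The probe set names of the 3 globin members carry the array maker's suffix for probes that match several related sequences, so each can hold signal from its close paralogs.

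The sequences just upstream of an alpha and a beta globin gene are shown because these chains are made together in red cells and both fell in operated raphe. They are taken from RefSeq (GRCr8), read 5′ to 3′ on the minus strand, and cover the 130 bases before the annotated start. Capitals mark 4 motifs, searched on both strands. These are CCAAT, a box common in promoters, the letters CACCC of the erythroid box, the letters ATAAA of a TATA-like element, and GATAA, the core that GATA factors bind, which can overlap the TATA-like letters.
Hba-a1, chr10:15842581-15842710: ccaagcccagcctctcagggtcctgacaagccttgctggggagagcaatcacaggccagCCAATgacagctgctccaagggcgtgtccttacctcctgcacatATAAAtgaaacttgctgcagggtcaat
Hbb, chr1:167663722-167663851: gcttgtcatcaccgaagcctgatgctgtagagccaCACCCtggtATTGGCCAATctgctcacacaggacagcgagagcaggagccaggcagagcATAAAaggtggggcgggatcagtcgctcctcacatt
The Hba-a1 window holds the CCAAT box once and the TATA-like letters once. The Hbb window holds the CCAAT box on both strands, the erythroid box once and the TATA-like letters once. The GATA core is in neither window. Of 33469 RefSeq promoters read over the same 130 bases, 21.3% held the CCAAT box, 31.4% the erythroid box letters, 22.9% the TATA-like letters and 12.2% the GATA core. These matches describe the letters only. The promoter table held 5 of the 7 members and had no entry for Pf4 or Selp.

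The 84 samples comprised 41 of raphe and 43 of cortex, hybridised to 244 arrays of 3 types (83 of type A, 81 of type B and 80 of type C). Each region had 4 naive samples, and at each of 6 times (4 h, 24 h, 7 d, 14 d, 28 d and 3 months) 4 injured and 2 sham samples. Exceptions were 1 raphe sham sample on type A at 3 months and 3 naive raphe samples on type C. The injury is labelled moderate, and the sham operation is named as a laminectomy for raphe and as sham surgery for cortex. Sham samples at 30 min and 72 h entered no comparison, and the raphe sample titled 30 min is described as 3 min elsewhere in its labels. The labels give no strain, age, sex or method of tissue collection and do not say whether vessels were flushed. They name the source as Raphe Magno in naive and sham samples and as Raphe in injured ones. They do not say that replicates are separate animals, so p-values measure the spread between these samples. Deposited signals were scaled to a 2% trimmed mean of 800.5 to 801.3 on each array, while medians ran from 185.8 to 410.5. Marker genes fitted the regional labels: 8 of 9 tested genes of cortical neurons were lower in naive raphe than in naive cortex, and 13 of 18 brainstem genes were higher.

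The 5 samples that stood apart are named here because several results rest on them. The library labelled raphe sham 3 months replicate 1, on types B and C only, summed to 18944 over 5 cortical neuron genes, against 1692 to 3378 in the other raphe samples and 14998 to 25443 in cortex. Its sum over 5 brainstem genes was 1766, against 5852 to 12282 in the other raphe samples and 1114 to 2286 in cortex. Both sums go against its label. The library labelled cortex sham 3 months replicate 1 summed to 19491 over 19 brainstem genes, against 4921 to 8169 in the other cortex samples and 17048 to 28666 in raphe. Its sum over 10 cortical neuron genes was 19293, against 41381 to 78846 in the other cortex samples and 2570 to 5915 in raphe. Whether these 2 libraries were exchanged or mixed was not tested. Raphe injured 4 h replicate 1 had actin 3′ to 5′ ratios of 27.2 to 65.6, a sign of degraded RNA. Cortex sham 14 d replicate 2 and cortex injured 7 d replicate 2 had high 5th percentiles of signal. All were kept, and for several results that rest on them the values without them are given.

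In the raphe, the red cell genes were highest in naive tissue. Hba-a1 read 80576, 86509, 78312 and 95512 in the 4 naive samples. In 12 sham samples it ran from 23750 to 72345 with a median of 50065, and in 24 injured samples from 29216 to 61838 with a median of 44922. Every operated raphe sample lay below every naive one. On the log2(signal + 32) scale, which all differences below use, naive Hba-a1 averaged 16.38 ± 0.13 (SD, n = 4), and the highest operated group, sham at 7 d, averaged 16.07 ± 0.10 (SD, n = 2). Hba-a1 was lower by 0.88 ± 0.16 (SE) in sham than in naive raphe, a 1.84-fold difference (limma, adjusted p = 0.00567). Injured raphe was lower than the same naive samples by 1.00 ± 0.15, or 2.00-fold (adjusted p = 0.000351). Without the 5 samples that stood apart the sham difference was -0.96 (adjusted p = 0.000346). Under quantile normalization Hba-a1 missed the threshold in both comparisons, at -0.62 for sham (adjusted p = 0.0723) and -0.55 for injured (adjusted p = 0.0619). Over 18 alternatives, which include probe sets shared with Hba-a2 that were added after seeing the data, the sign turned in 3 for sham (up to 1.24) and in 4 for injured (up to 1.13), all of them shared probe sets and none called. The adjusted p ran from 0.000346 to 0.944 for sham and from 2.05e-05 to 0.996 for injured.

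Of the 7 members, 6 passed an adjusted p of 0.05 between sham and naive raphe, 5 lower and 1 higher, where 1.35% of the 18716 probe sets tested did (0.513% lower and 0.839% higher). Without naive replicate 1 the count of members was 3. Between injured and naive raphe 4 passed, 3 lower and 1 higher, where 3.05% did (0.823% lower and 2.22% higher). Both comparisons use the same 4 naive samples (3 on type C), so they are not independent of each other. The members were chosen with earlier results of these data known, and Selp passed the filter in raphe through operated samples. The Hbb-b1 and Hbb probe sets can also share signal. The counts therefore describe the members and are not a test of them.

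The beta chains fell as well. Hbb-b1 read 14351, 14822, 14432 and 11579 in naive raphe. Sham samples ran from 4270 to 13105 with a median of 6958 (n = 11), and injured samples from 5258 to 12246 with a median of 7911 (n = 24). The ranges overlap: 10 of 11 sham and 22 of 24 injured samples lay below the lowest naive sample, which at 11579 stood below the other 3 naive samples. Hbb-b1 was lower by 0.87 ± 0.18 in sham (1.83-fold, adjusted p = 0.0110) and by 0.76 ± 0.17 in injured raphe (1.69-fold, adjusted p = 0.0102). Both calls of this probe set held in its 10 alternatives and with each sample left out in turn. A probe set shared by 4 beta globin genes, Hbb-b1 and Hbb among them, gave 0.04 ± 0.19 for sham (adjusted p = 0.956) and 0.10 ± 0.18 for injured raphe (adjusted p = 0.845).

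Hbb read 22338, 23025, 20075 and 23130 in naive raphe, against 8106 to 22367 in sham (median 12346) and 8491 to 21148 in injured samples (median 13648). Among operated samples, 10 of 11 sham and 22 of 24 injured lay below the lowest naive one. Hbb was lower by 0.77 ± 0.20 in sham (1.70-fold, adjusted p = 0.0454) and by 0.70 ± 0.18 in injured raphe (1.62-fold, adjusted p = 0.0299). The sham call sat at the threshold: 12 of 15 fits with 1 sample left out lost it, with adjusted p from 0.0397 to 0.118 over the 15. The injured call was lost without naive replicate 1, 2 or 4, with the highest adjusted p at 0.0978. Adjustment within array type also ended both Hbb calls (adjusted p = 0.0502 for sham and 0.0501 for injured), as did leaving out the filter for sham (adjusted p = 0.0533). On the shared beta probe set above the sign was turned, and over the 11 alternatives the adjusted p ran from 0.0104 to 0.956 for sham and from 0.00908 to 0.845 for injured.

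Alas2 read 1755, 1314, 1572 and 1692 in naive raphe. It ran from 545.3 to 1452 in sham (median 1071) and from 769.4 to 1543 in injured samples (median 1055). Of these, 9 of 11 sham and 21 of 24 injured samples lay below the lowest naive sample. Alas2 was lower by 0.70 ± 0.18 in sham (1.62-fold, adjusted p = 0.0437), a call lost in 10 of 15 fits with 1 sample left out (adjusted p 0.0145 to 0.115). In injured raphe the difference was -0.52 ± 0.16 and missed the threshold (adjusted p = 0.0769). Without the degraded 4 h sample it was -0.54 and passed (adjusted p = 0.0256, with 0.0256 to 0.213 over the 28 fits that leave out 1 sample).

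**Figure D1:**
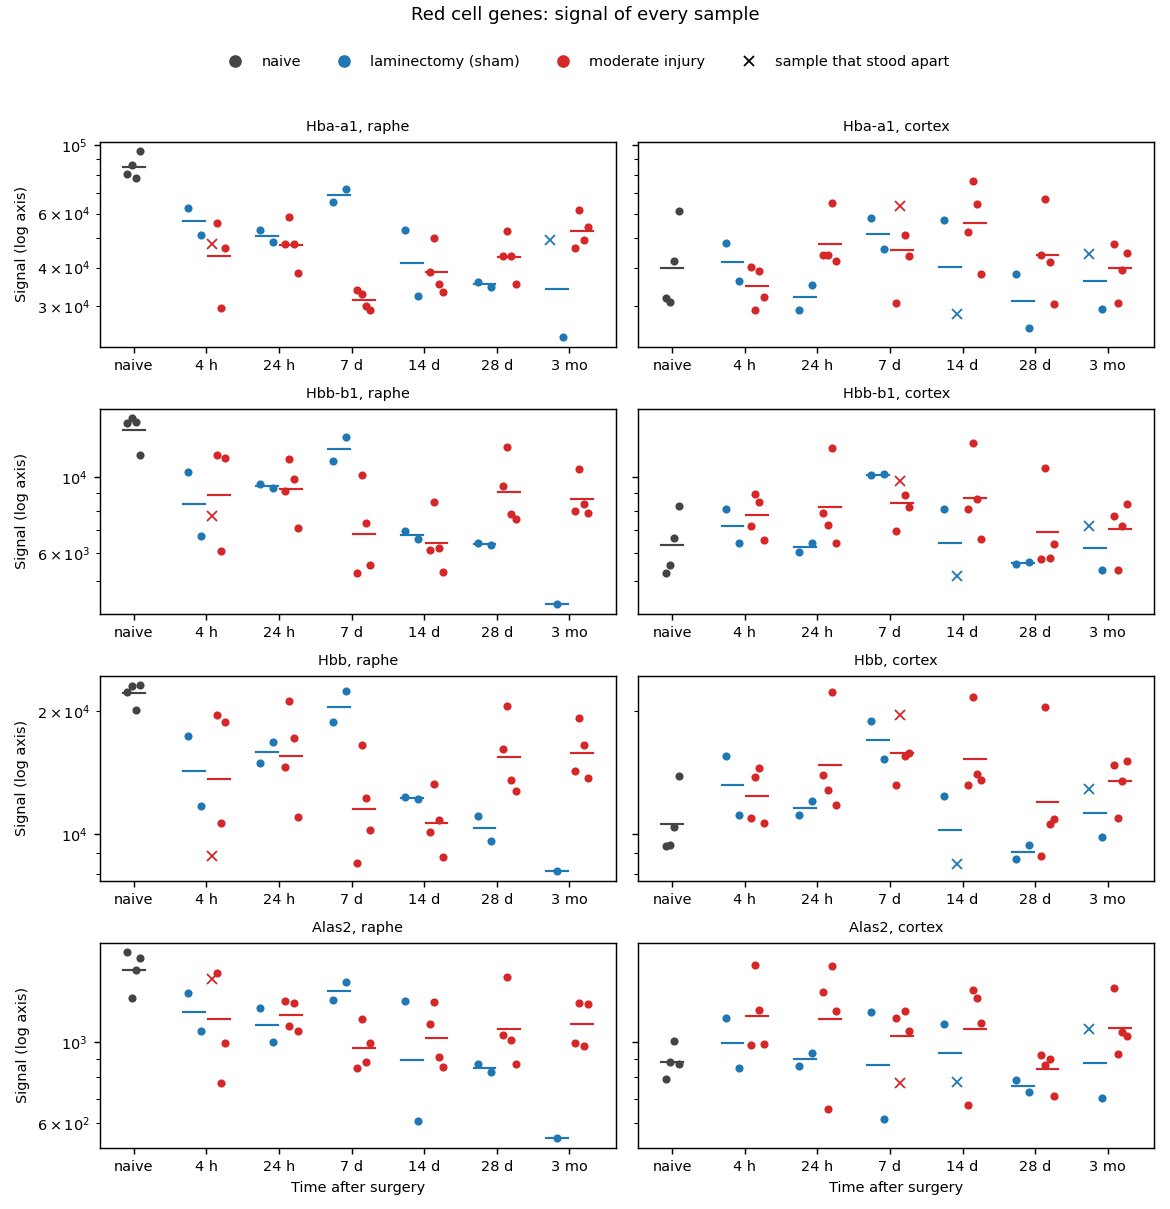
Signal of Hba-a1, Hbb-b1, Hbb and Alas2 in each sample on a log axis, by region, condition and time, with naive samples in grey, sham in blue and injured in red. Horizontal lines are group means, crosses are the 5 samples that stood apart, and the 4 naive raphe values of Hba-a1 (78312 to 95512) lie above every operated raphe sample.

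Pf4, the platelet chemokine, was the member that fell most in sham raphe. It read 733.9, 345.1, 543 and 365 in naive raphe and ran from 37.5 to 137.7 in 11 sham samples (median 106.2). No sham sample reached the lowest naive one. The log2 difference was -2.02 ± 0.44, or 4.06-fold on this scale (adjusted p = 0.0146). The fold is uncertain, since 10 of the 11 sham values lay at or below the 40th percentile of their array. Over the alternatives, pseudocounts included, the difference ran from -2.37 to -1.44. The call was lost without naive replicate 1 (-1.82, adjusted p = 0.0616, within 0.0148 to 0.0616 over the 15 fits) and with a pseudocount of 1 (-2.37, adjusted p = 0.0736, within 0.00393 to 0.0736 over the alternatives).

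Injured raphe was much more scattered for Pf4, from 6.17 to 520 with a median of 202.4. Of its 24 samples, 22 lay below the lowest naive value. The difference from naive was -1.26 ± 0.40 and missed the threshold (adjusted p = 0.0816). Without the degraded 4 h sample, which read 415.8, it was -1.30 (adjusted p = 0.0387, within 0.0387 to 0.244 over the 28 fits). The SD within groups of raphe Pf4 was 0.79, larger than that of 96.7% of the probe sets tested.

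Selp, the leukocyte adhesion receptor, was the member that rose. It read 50.8, 54.4, 48.2 and 34.8 in naive raphe. It ran from 158.5 to 485.5 in sham (median 274.6, n = 11) and from 91.7 to 578 in injured samples (median 226.8, n = 24). Every operated raphe sample lay above every naive one. Selp was higher by 1.98 ± 0.28 in sham (adjusted p = 0.000247) and by 1.68 ± 0.26 in injured raphe (adjusted p = 0.000351). All 4 naive values lay between the 16.8th and 25.2th percentiles of their array, below the 40th percentile of the filter, which Selp passed in raphe through operated samples. No fold is given for that reason: over the alternatives, pseudocounts included, the difference ran from 1.22 to 2.55 for sham and from 1.02 to 2.21 for injured raphe. Both calls held in each alternative and with each sample left out in turn.

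Emcn, the capillary and venous sialomucin, was not called in either comparison with naive tissue. It read 524.2, 639.2 and 504.9 in the 3 naive raphe samples, 384.2 to 520.7 in sham (median 445.5, n = 12) and 270 to 727.1 in injured samples (median 498.8, n = 24). The ranges overlap, but 10 of 12 sham and 13 of 24 injured samples lay below the lowest naive one, and 3 injured samples above the highest. The sham difference was -0.27 ± 0.13 (adjusted p = 0.342) and the injured difference -0.17 ± 0.13 (adjusted p = 0.532). All 7 members, Emcn included, had an unadjusted p under 0.05 between sham and naive raphe (limma).

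**Figure D2:**
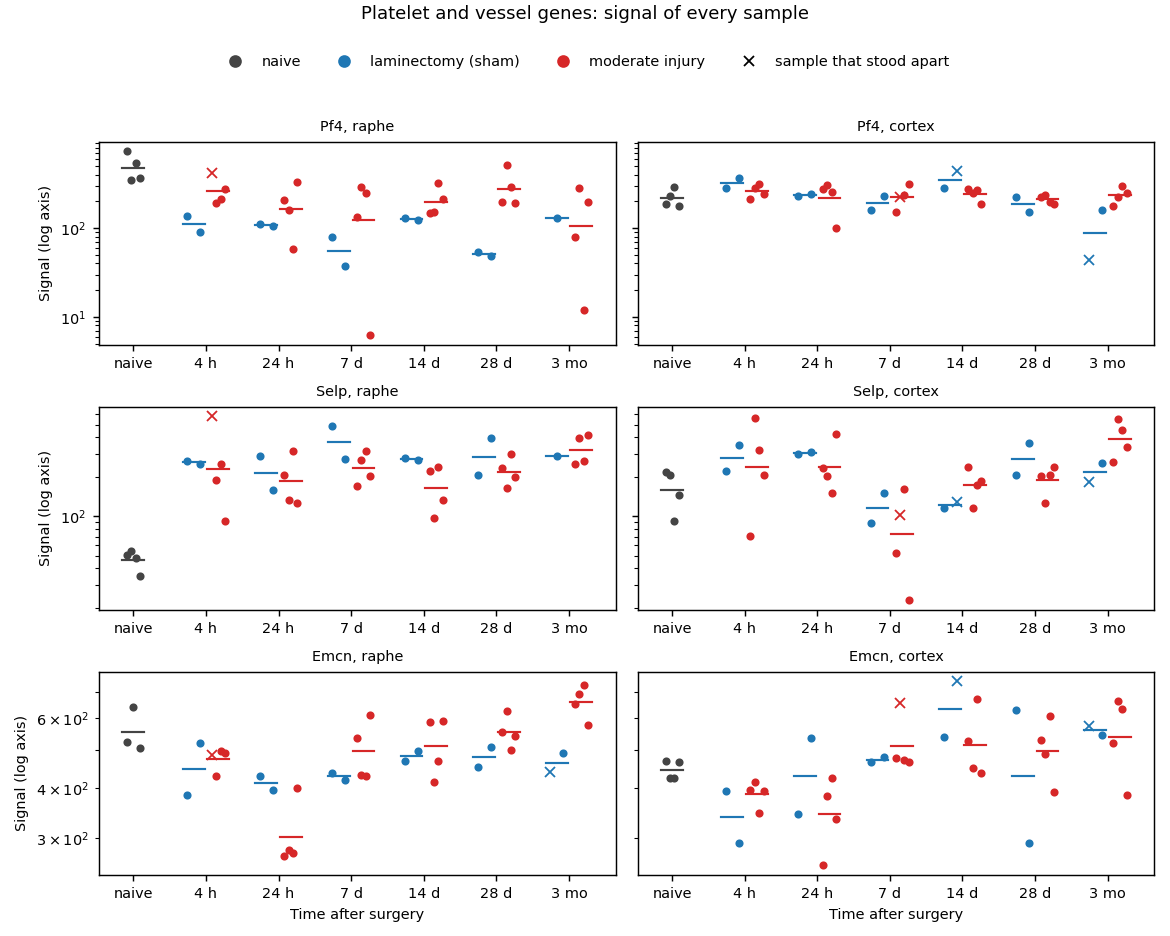
Signal of Pf4, Selp and Emcn in each sample on a log axis, by region, condition and time, with naive in grey, sham in blue and injured in red, group means as lines and crosses for the 5 samples that stood apart. In raphe, sham Pf4 (37.5 to 137.7) lies below naive (345.1 to 733.9) and operated Selp lies above naive Selp.

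All 12 operated raphe groups, 6 sham and 6 injured, had a mean below naive for Hba-a1, Hbb-b1, Hbb, Alas2 and Pf4, and all 12 a mean above naive for Selp. In bulk tissue, fewer cells of a type and less RNA per cell cannot be told apart. Values of other vessel and border genes are given beside these differences. Over 20 genes of meninges and fibroblasts, the summed signal was 27572 to 38005 in the 3 naive raphe samples with all array types, 16464 to 25507 in sham, with no overlap, and 17594 to 64641 in injured samples. Of these 20 genes, 1 passed between sham and naive raphe, Slc6a13 (-1.32, adjusted p = 0.049), and their median difference was -0.62, against 0.00 over all probe sets tested. Over 11 choroid plexus genes, the summed signal was 5674 to 10695 in naive and 5684 to 41273 in sham raphe, which overlap. Of the 10 tested, 0 passed, and their median difference was 0.52, the other way. Over 21 pericyte and smooth muscle genes, the summed signal was 13466 to 21937 in naive and 11917 to 14526 in sham raphe, which overlap. Vtn (-0.68 ± 0.13, adjusted p = 0.00571), the vitronectin gene that brain pericytes transcribe, and Tagln (-1.18 ± 0.28, adjusted p = 0.0256), a smooth muscle actin-binding protein, passed, 2 of 19 tested. Over all probe sets tested, 1.35% passed between sham and naive raphe. The part of these vessel and border genes in the members' differences was not tested.

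Of 25 tested erythrocyte genes, 4 passed as lower between sham and naive raphe, all of them members. The other 21 genes of that list, which does not hold the beta globin gene Hbb-bs described below, had none called and a median difference of -0.07. The summed signal of the 31 erythrocyte genes on the arrays that are not members was 16424 to 18190 in naive and 16005 to 19396 in sham raphe. Of 14 platelet genes tested, Pf4 was lower and Selp higher, and Gp9, a subunit of the platelet von Willebrand factor receptor, just missed the threshold (1.32 ± 0.35, adjusted p = 0.0507). Of 35 endothelial genes, Selp alone was called, and the median difference of the list was -0.19. Of 17 leukocyte genes, Defa5 was called higher, and of 17 genes of plasma proteins and the response to haemorrhage none was. Over all probe sets tested, 1.35% passed between sham and naive raphe and 3.05% between injured and naive raphe. A single called gene in a list this short is therefore not read as a result about the list. In injured against naive raphe, Tbxa2r, the thromboxane receptor, was called higher (0.87, adjusted p = 0.034) and Slc7a5, a neutral amino acid carrier of the blood-brain barrier, lower (-0.56, adjusted p = 0.0123). Vtn (-0.74, adjusted p = 0.00048) and Ndufa4l2 (-0.40, adjusted p = 0.0324) of the pericyte list were called lower, and Itgal, a leukocyte integrin, higher (1.07, adjusted p = 0.0365). Of 18 brainstem genes 1, Sncg, which encodes gamma-synuclein, was called lower in injured raphe (-0.76, adjusted p = 0.0213), and it differed by -0.67 in sham (adjusted p = 0.0955). The source label also differs between injured and naive raphe. Its part was not tested.

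**Figure D3:**
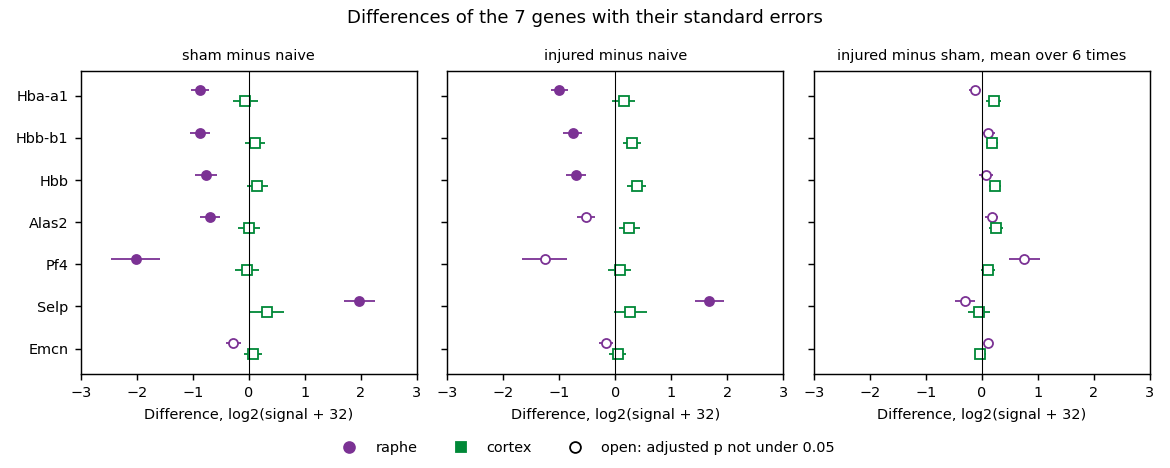
Difference of each member on the log2(signal + 32) scale in raphe (purple circles) and cortex (green squares) for each comparison of conditions, with bars for the SE and open symbols where the adjusted p was not under 0.05. Raphe Hba-a1 lies at -0.88 and Selp at 1.98 for sham against naive, while no cortex symbol of that comparison is filled.

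Between injured and sham raphe over the 6 times, 0 of the 7 members passed, where 0.946% of all probe sets did, and 1 of 7, Pf4, had an unadjusted p under 0.05. Pf4 was higher in injured than in sham raphe by 0.76 ± 0.28 (adjusted p = 0.174), above the mean of the sham samples in 20 of 24 injured samples. With array quality weights it passed (0.86, adjusted p = 0.0272, within 0.0272 to 0.372 over the alternatives). The red cell genes differed by -0.13 ± 0.10 (Hba-a1) to 0.18 ± 0.11 (Alas2). Selp differed by -0.30 ± 0.18 (adjusted p = 0.457).

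At single times, 1 of the 7 members passed at 7 d in the raphe, where 0.801% of all probe sets did. Hba-a1 read 65368 and 72345 in sham and 33950, 32961, 29958 and 29216 in injured raphe at 7 d. The injured group at 7 d had the lowest and the sham group the highest mean Hba-a1 of all 12 operated raphe groups. Hba-a1 was lower in injured raphe by 1.13 ± 0.25, or 2.18-fold (adjusted p = 0.0207). The groups do not overlap, but the call was lost under quantile normalization (-0.62, adjusted p = 0.304) and without sham replicate 1 (adjusted p = 0.0959), sham replicate 2 (0.201) or injured replicate 3 (0.0544) or 4 (0.0581). At the same time Hbb-b1 differed by -0.82 ± 0.27 (adjusted p = 0.153) and Hbb by -0.83 ± 0.29 (adjusted p = 0.181), each with no overlap of the groups. Of 15 other globin probe sets tested, 0 passed at 7 d. The 10 of them with a mean signal above 1000 ranged from -2.65 to 1.01. The probe set of Hbb-bs alone differed by 0.01 ± 0.32 (limma, adjusted p = 0.995), so the globin probe sets did not move as one.

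At 3 months the signs of the red cell genes were the other way and none of the 7 members passed, where 0.614% did, though 5 of 7 had an unadjusted p under 0.05. Hbb-b1 read 4270 in the only sham sample on type A and 7853 to 10567 in 4 injured samples (1.01 ± 0.35, adjusted p = 0.212). Alas2 differed by 1.00 ± 0.34 (adjusted p = 0.204) and Hbb by 0.96 ± 0.38 (adjusted p = 0.312), both against that same sample. Hba-a1, on type B, read 23750 and 49123 in sham and 46498 to 61838 in injured raphe at 3 months. Its difference was 1.15 without the sham library with cortical markers and 0.10 without the other sham sample. At 28 d Pf4 read 53.9 and 48.7 in sham and 197, 520, 292 and 193 in injured raphe, with no overlap. Its difference of 1.89 ± 0.64 did not pass (adjusted p = 0.462), and at 28 d 0% of all probe sets did. No member passed at 4 h, 24 h or 14 d, where 0.15%, 0.00534% and 0.0374% did, and 0, 1 and 0 of the 7 had an unadjusted p under 0.05.

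Across the times after injury, Emcn changed in the raphe. At 24 h it read 270, 279, 276 and 400.2, and the lowest of the other injured raphe samples read 414. At 3 months it read 651, 690.2, 727.1 and 578. Injured raphe was thus lowest at 24 h, in all 4 samples, and its mean was highest at 3 months. A test of any difference among the 6 injured groups gave an adjusted p of 0.00458 for Emcn (limma F test), and 0.486% of probe sets passed. The call held in each of the 10 alternatives (adjusted p 0.000944 to 0.0105) and in each of the 24 fits with 1 sample left out (0.000914 to 0.0277). Sham Emcn at 24 h read 429.7 and 396, and the injured difference from it was -0.41 ± 0.18 (adjusted p = 1). The mean of Emcn was also lowest at 24 h among the 6 sham groups, and the variation of the injured minus sham difference with time did not pass (adjusted p = 0.459). The SD within groups of raphe Emcn was 0.18, smaller than that of all but 2.77% of the probe sets tested.

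Hba-a1 over time depended on the samples that stood apart. Its difference between injured and sham raphe did not vary with time at the threshold (adjusted p = 0.146; 0% of all probe sets passed, and 1974 had an unadjusted p under 0.05). Without the 5 samples the adjusted p was 0.0141 (0.0141 to 0.302 over the alternatives), and without the degraded 4 h sample alone 0.0484 (0.0484 to 0.316 with 1 sample left out). Among sham groups the adjusted p of Hba-a1 was 0.248, and 0.0278 without the 5 samples (0.0278 to 0.349 over the alternatives). With all samples, 0.363% of probe sets passed among sham groups.

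In the cortex the same genes did not separate naive from operated tissue. Hba-a1 read 31899, 30881, 42082 and 61317 in naive cortex, 25476 to 58159 in sham (median 37115, n = 12) and 29236 to 76478 in injured cortex (median 43717, n = 24). The 3 ranges overlap. None of the 7 members passed between sham and naive cortex, where 0.49% of 18769 probe sets did, or between injured and naive cortex, where 2% did. Members at an unadjusted p under 0.05 were 0 of 7 for sham and 1 of 7, Hbb, for injured tissue (0.39 ± 0.17, adjusted p = 0.235). The sham differences of the 4 red cell genes ran from -0.06 ± 0.22 (Hba-a1) to 0.15 ± 0.18 (Hbb).

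Pf4 read 187, 228, 293 and 178 in naive cortex and overlapped with sham (43.3 to 435.1, median 230) and injured samples (99.1 to 311.3, median 239.9). Selp read 218, 205, 92.5 and 144 in naive cortex, inside the ranges of sham (88.4 to 361.8) and injured samples (22.8 to 564.3). Emcn read 469, 424, 425 and 465, inside 290.8 to 742.9 in sham and 256.2 to 668.9 in injured cortex. No condition stood apart for these 3 genes.

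Between injured and sham cortex over the 6 times, 0 of the 7 passed, where 0.133% did, and 2 of 7 had an unadjusted p under 0.05. These were Hbb (0.23 ± 0.11, adjusted p = 0.428) and Alas2 (0.25 ± 0.12, adjusted p = 0.42). At 3 months 1 passed, where 2.47% did. Pf4 read 43.3 and 161 in sham and 177, 224, 301 and 249 in injured cortex (1.14 ± 0.32, adjusted p = 0.0466). The value of 43.3 comes from the library with brainstem markers. Without it the difference was 0.46 (adjusted p = 0.907, the highest of the 6 fits with 1 sample left out), and 6 of 10 alternatives also lost the call.

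Across the times, Pf4 passed among sham cortex groups (adjusted p = 0.0409, where 3.07% did), and without the 5 samples that stood apart its adjusted p was 0.666. Selp among injured cortex groups sat just outside the threshold (adjusted p = 0.0512, where 1.1% passed). It read 52.1, 102.5, 163 and 22.8 at 7 d and 259, 553, 451 and 337 at 3 months. These 2 groups held the lowest and the highest mean of Selp among the 12 operated cortex groups. At 4 h, 24 h, 7 d, 14 d and 28 d no member passed in the cortex, where 0.016%, 0.0426%, 0.368%, 1.81% and 0% of probe sets did. Of the 7 members, 1 had an unadjusted p under 0.05 at 14 d (Hbb, 0.57 ± 0.27, adjusted p = 0.25) and 0 at the other 4 times. Without cortex sham 14 d replicate 2, a sample that stood apart, this Hbb difference was 0.29, and without sham replicate 1 it was 0.85. The difference between injured and sham cortex varied with time for 0 of 7 members, where 0.97% passed, and 1 of 7, Pf4, had an unadjusted p under 0.05.

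The red cell genes were higher in naive raphe than in naive cortex. Of the 7 members 5 passed, 4 higher and 1 lower, where 14.2% of 19453 probe sets did (6.65% higher and 7.59% lower), and for each of the 7 the naive ranges of the regions did not overlap. Hba-a1 was higher in naive raphe by 1.09 ± 0.24 (2.13-fold, adjusted p = 0.000571), Hbb-b1 by 1.11 ± 0.22 (2.16-fold, adjusted p = 9.75e-05) and Hbb by 1.06 ± 0.23 (2.08-fold, adjusted p = 0.000518). Alas2 was higher by 0.81 ± 0.23 (1.75-fold, adjusted p = 0.00904). Selp was lower by 1.27 ± 0.37 (adjusted p = 0.0114). All 4 naive raphe and 2 of 4 naive cortex values of Selp lay at or below the 40th percentile of their array, and the difference ran from -1.73 to -0.72 over the alternatives. Pf4 differed by 1.02 ± 0.42 (adjusted p = 0.0983) and Emcn by 0.29 ± 0.19 (adjusted p = 0.341).

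Over all matched groups the regions were closer. Hba-a1 was higher in raphe by 0.18 ± 0.08 (adjusted p = 0.0498), and Pf4 was lower by 0.52 ± 0.14 (adjusted p = 0.0019), so 2 members passed where 53.1% of probe sets did. That share is above 2 of 7. The Hba-a1 call was lost in 6 of 10 alternatives (adjusted p 0.0396 to 0.138).

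The difference between the regions in the sham effect was tested itself. None of the 7 members passed, and 0% of all 19453 probe sets did, with 1128 at an unadjusted p under 0.05. Of the 7, 6 had an unadjusted p under 0.05, all but Emcn. The region differences were -1.99 ± 0.49 for Pf4 (adjusted p = 0.179), -0.99 ± 0.25 for Hbb-b1 (adjusted p = 0.229), 1.65 ± 0.43 for Selp (adjusted p = 0.235), -0.92 ± 0.27 for Hbb (adjusted p = 0.378), -0.81 ± 0.28 for Hba-a1 (adjusted p = 0.596) and -0.70 ± 0.27 for Alas2 (adjusted p = 0.695). The separation of naive from sham raphe is therefore not shown to differ from that in cortex after adjustment. With a larger pseudocount Pf4 passed (-1.45, adjusted p = 0.0445, within 0.0445 to 0.498 over the alternatives). For the injury effect 0 of 7 passed, where 0.0206% did, and 1 of 7, Pf4, had an unadjusted p under 0.05 (0.65 ± 0.30, adjusted p = 0.556).

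Among the other erythrocyte genes, 4 of 24 tested were higher in naive raphe than in naive cortex, Epb41, Urod, Hba-a3 and Alad, and 1 was lower. Over all probe sets tested, 6.65% were higher and 7.59% lower. Epb41 (1.12) encodes the membrane skeleton protein 4.1, Urod (0.66) and Alad (0.73) encode enzymes of haem synthesis that all cells use, and Hba-a3 (1.00) is a further alpha globin gene. Slc4a1, the red cell anion exchanger, was lower in naive raphe (-0.93). Of 19 pericyte and smooth muscle genes 3 were higher, and the summed signals of that list overlap between the naive regions. Of the endothelium list, Ramp2 (0.64), Mfsd2a (0.78) and Slco1c1 (0.74) were called higher in naive raphe, and Cd34 (-1.04) and the member Selp lower. Coro1a (-1.59) and Cd8a (-1.46) of the leukocyte list were called lower in naive raphe. Of the plasma and haemorrhage list, Alb was called lower (-1.44) and Hmox1 (0.90) and Plat (0.88) were called higher.

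The arrays hold 20 other globin probe sets, most of them shared between paralogs, and 15 were bright enough to be tested in raphe. Between sham and naive raphe 2 were lower and 0 higher, where 0.513% and 0.839% of all probe sets tested were. One is shared by Hba-a1 and Hba-a2 (-0.74 ± 0.19, adjusted p = 0.0416) and the other stands for Hbb-bs alone, a further beta globin gene (-0.99 ± 0.22, adjusted p = 0.0137). The 10 with a mean signal above 1000 ranged from -0.99 to 1.24, so bright globin probe sets did not move as one. A bright probe set shared by 4 beta globin genes differed by 0.04 ± 0.19, and it ranged from 17014 to 21779 in naive raphe. An alpha probe set shared by 2 genes differed by 0.10 ± 0.38, and 2 others with wide error differed by 0.89 ± 0.61 and 1.24 ± 0.72. Between the naive regions, 5 of 16 tested were higher in raphe and 0 lower, where 6.65% and 7.59% of all probe sets tested were.

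**Figure D4:**
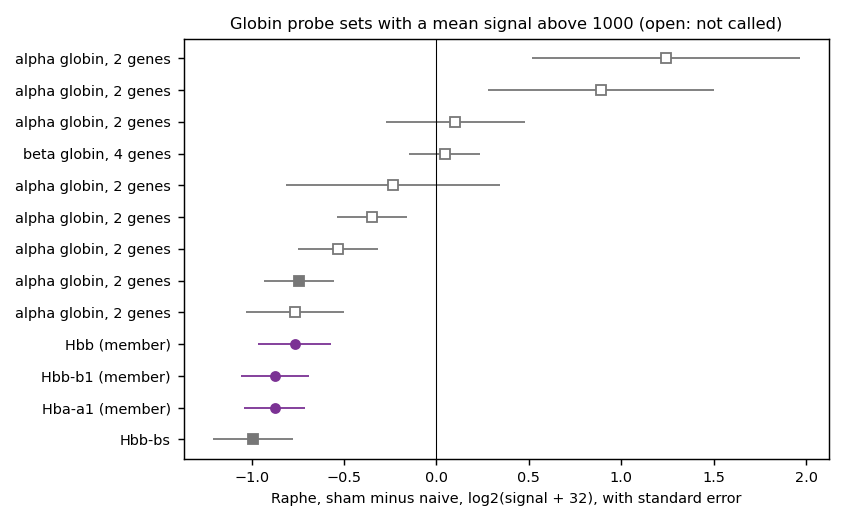
Sham minus naive raphe difference of each globin probe set with a mean signal above 1000, on the log2(signal + 32) scale with SE bars, for member probe sets (purple) and the others (grey squares), and open symbols where the adjusted p was not under 0.05. The 3 members lie between -0.77 and -0.88 for sham against naive raphe, while the other bright probe sets spread from -0.99 to 1.24.

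Within groups, red cell genes varied together from sample to sample. Deviations from the group means were correlated for 21 pairs of members in each region, 42 in all, with permutation p-values adjusted over the 42. The permutation shuffled the deviations over all samples of a region. Subtracting group means leaves fewer free values than n, and in groups of 2 the deviations mirror each other. These p-values therefore tend to be too small. Hbb-b1 and Hbb, on the same array, had r = 0.90 in raphe (rho = 0.88, n = 38, permutation adjusted p = 7e-05, which rests on the smallest p the 100000 resamples can give, and r = 0.89 without the 2 farthest samples). In cortex they had r = 0.95 (rho = 0.94, n = 42, permutation adjusted p = 7e-05, and r = 0.93 without the 2 farthest). Hba-a1, measured on another array, followed Hbb-b1 with r = 0.66 in raphe (rho = 0.60, permutation adjusted p = 7e-05, r = 0.62 without the 2 farthest) and 0.82 in cortex (rho = 0.79, permutation adjusted p = 7e-05, r = 0.78).

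Alas2 followed Hba-a1 with r = 0.80 in raphe (rho = 0.70, permutation adjusted p = 7e-05, r = 0.73 without the 2 farthest) and 0.33 in cortex (rho = 0.39, permutation adjusted p = 0.088, r = 0.37). With Hbb-b1, Alas2 had r = 0.53 in raphe (rho = 0.49, permutation adjusted p = 0.0045, r = 0.42) and 0.41 in cortex (rho = 0.39, permutation adjusted p = 0.023, r = 0.38). With Hbb it had r = 0.35 in raphe (rho = 0.37, permutation adjusted p = 0.081, r = 0.50) and 0.43 in cortex (rho = 0.45, permutation adjusted p = 0.018, r = 0.42). Differences between the regions were not tested. Pf4 did not track the red cell genes: r ran from 0.04 to 0.24 in raphe and from -0.28 to 0.08 in cortex. Emcn ran against the 3 globins in raphe, with r = -0.42 for Hba-a1 (rho = -0.45, n = 39, permutation adjusted p = 0.026), -0.45 for Hbb-b1 (rho = -0.44, n = 37, adjusted p = 0.021) and -0.47 for Hbb (rho = -0.47, n = 37, adjusted p = 0.015). Without the 2 farthest samples these were -0.43, -0.42 and -0.47. In cortex r of Emcn with the red cell genes ran from -0.05 to 0.23. Hba-a1 and Selp had r = -0.39 in cortex (rho = -0.49, n = 40, permutation adjusted p = 0.035, r = -0.37 without the 2 farthest) and -0.08 in raphe (rho = -0.13, n = 38, permutation adjusted p = 0.77, r = -0.08). Because the permutation p-values tend to be too small, pairs with an adjusted p not far under 0.05 are described and not read as calls. These include the pairs of Emcn with globins in raphe and of Hba-a1 with Selp in cortex. The labels name no batch within which to repeat the correlations.

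**Figure D5:**
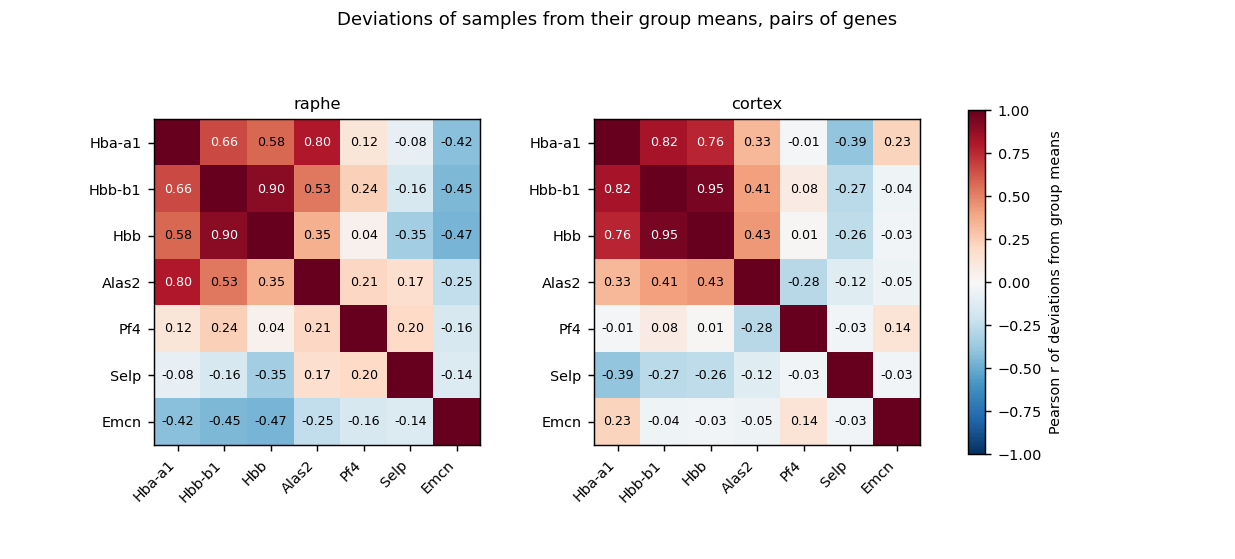
Pearson r of the deviations from group means for each pair of members, with raphe on the left and cortex on the right, from 37 to 42 samples a pair. The block of globin genes is positive in both regions (0.58 to 0.90 in raphe, 0.76 to 0.95 in cortex), and the Emcn values with globins are negative in raphe.

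By the same deviations over both regions, with 77 to 80 samples and 9402 genes that are not members to choose from, the nearest gene to each globin member was Hbb-bs. For Hba-a1 the 5 nearest were Hbb-bs (r = 0.59), Ggt7 (0.56), Fam53c (0.53), Rpl37a (0.53) and Thap11 (0.51). For Hbb-b1 they were Hbb-bs (0.71), Hba-a3 (0.58), Ube2k (0.49), Gapvd1 (0.49) and Timp2 (0.48), and for Hbb they were Hbb-bs (0.70), Ube2k (0.55), Hba-a3 (0.54), Tmem17 (0.54) and S100b (0.54). Only Hbb-bs and Hba-a3 among these are globin genes, and the globin member probe sets can hold signal from such paralogs. The nearest to Alas2 were Cttn (0.58), Pxmp2 (0.57), Amotl2 (0.55), Dync1li2 (0.51) and Acly (0.50). The nearest to Pf4 were Vps33b (0.68), Bgn (0.67), Fyn (0.67), Ctsk (0.67) and Cacna1a (0.66), and to Selp Htr2b (0.63), RT1-M5 (0.60), Atp4a (0.58), Chrng (0.58) and Mep1a (0.57), all on the array type that holds the member. The nearest to Emcn were Hoxd9 (0.54), Ift122 (0.49), Atf6b (0.48), Capn9 (0.47) and Sars1 (0.46). Genes on one array share its hybridisation, so these values describe likeness only.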

How the data were processed

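RNA of 84 samples had been hybridised to 3 types of rat array, A, B and C. The authors deposited 1 intensity per probe set and array, and these intensities had been scaled to a common trimmed mean on each array, as their values show. Names of the software behind them were not given in the sources used here. No column of another series was present. Control probe sets were left out. Probe sets above the 40th percentile of their array on at least 4 arrays of a region were kept. Tests used log2(intensity + 32), group means and limma (3.58.1, with statmod 1.5.0, in R 4.3.3), fitted per region with each array type apart. Comparisons between the regions used a joint fit of both regions, again with each array type apart. Benjamini-Hochberg adjustment ran over all tested probe sets of the 3 types together. Effects over time weighted the 6 times equally. Python 3.11.15, pandas 2.3.3, numpy 2.4.6 and scipy 1.17.1 served for summaries and permutations. The code was tested on simulated data.

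Probe sets were named from GEO's platform annotation: 18178 had 1 gene symbol, 391 several and 7633 none. Every member was named in the text, with up to 4 genes per list by smallest p or past the threshold, and the 5 genes most like each member. Members and lists were chosen with earlier results of these data known. Groups follow the sample titles. The 2 type A arrays titled cortex injured 24 h replicates 1 and 2 are described as 4 h elsewhere in their labels. The number of arrays limits the precision. Alternatives covered normalization, filter, pseudocount, array weights, replicate block, adjustment within array type, and left-out samples.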

Additional observations from a re-analysis of the deposited data

Results flagged for a closer look

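In groups of 4 samples, 7 of 97 groups of member values held 1 sample far from the other 3, and chance gives about 1 in 20 groups. Hba-a1 read 65078 in cortex injured 24 h replicate 3, against 42057 to 43966 in the other 3. Hbb-b1 read 11579 in naive raphe replicate 4, against 14351 to 14822, and 10664 in cortex injured 28 d replicate 2, against 5801 to 6414. Hbb read 21643 in cortex injured 14 d replicate 2, against 13159 to 14012. Pf4 read 99.1 in cortex injured 24 h replicate 4, against 254.4 to 302.8. Emcn read 400.2 in raphe injured 24 h replicate 4, against 270 to 279.4, and 655.7 in cortex injured 7 d replicate 2, one of the samples that stood apart, against 466.5 to 476.4.

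At 2 times, Pf4 lay above the mean of the sham samples in every injured raphe sample and below it in every injured cortex sample. The injured minus sham difference of raphe exceeded that of cortex by 1.30 at 4 h and by 1.03 at 14 d on the log2(signal + 32) scale. These differences between the regions were not tested at single times. Injured raphe at 4 h holds the degraded sample, its highest Pf4 value at 415.8. Sham cortex at 14 d holds replicate 2, another sample that stood apart. No value without these samples is given here.

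Samples outside the comparisons also left the naive range. Selp read 123.7 in the raphe sham sample at 30 min, against 34.8 to 54.4 in naive raphe. In cortex it read 232.5 in sham 30 min replicate 1 and 244.5 in the sham sample at 72 h, against 92.5 to 217.7 in naive cortex. The other cortex sham sample at 30 min read 146.3, inside the naive range. The same 72 h sample read 1245 for Alas2, against 789.9 to 1004, and 644.4 for Emcn, against 424.5 to 469.4.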

How the results depend on the processing

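With 10 alternatives, 4 to 6 members passed between sham and naive raphe and 3 to 6 between injured and naive raphe, close to the 6 and 4 with the chosen settings. The number with 1 sample left out ran from 3 to 6 for sham. Other counts of members called moved as follows. Quantile normalization gave 0 in place of 1 for raphe at 7 d, cortex at 3 months and cortex sham over time, and 1 in place of 0 for cortex injured over time. Array quality weights gave 1 in place of 0 for injured against sham raphe and cortex injured over time, 2 in place of 1 for raphe injured over time, and 0 in place of 1 for cortex at 3 months and cortex sham over time. Leaving out the 5 samples that stood apart gave 1 in place of 0 for the raphe sham course and for injured minus sham over time in raphe, 0 in place of 1 for cortex at 3 months and cortex sham over time, and 1 in place of 2 over the matched groups. The last count was also 1 without the filter, with a pseudocount of 1, with adjustment within array type and with the replicate block. Without the filter, both cortex calls of Pf4 were lost (0). The larger pseudocount gave 0 for cortex at 3 months, 1 for cortex injured over time and 1 for the region difference of the sham effect. A trended prior gave 0 for cortex at 3 months, and it and adjustment within array type gave 1 for cortex injured over time. With each gene averaged over its probe sets, 5 in place of 2 pericyte genes were lower in sham raphe and 2 in place of 1 choroid plexus genes differed between the naive regions. The cause was not tested.

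With 1 sample left out, counts ran from 0 to 1 for raphe at 7 d, for injured minus sham over time in each region, and for cortex at 3 months, cortex injured and cortex sham over time, and from 1 to 3 over the matched groups. Small uncalled differences changed sign. Quantile normalization gave 0.061 for Hba-a1 in injured against sham raphe, 0.038 for Selp in injured against sham cortex and -0.0011 for Emcn in injured against naive cortex. For sham against naive cortex, Hba-a1 was 0.028 with array weights, Alas2 0.0010 with the larger pseudocount and 0.057 with the replicate block, and Pf4 0.0049 with the larger pseudocount and 0.037 without the 5 samples. With 1 sample left out, differences ran from -0.0085 to 0.22 (Pf4), -0.12 to 0.021 (Selp) and -0.11 to 0.061 (Emcn) for injured against sham cortex. They ran from -0.19 to 0.14 (Hba-a1), -0.079 to 0.077 (Alas2), -0.14 to 0.097 (Pf4) and -0.018 to 0.15 (Emcn) for sham against naive cortex, from -0.0081 to 0.20 for Pf4 in injured against naive cortex, from -0.0031 to 0.076 for Emcn over the matched groups and from -0.17 to 0.0082 for Alas2 in the region difference of the injury effect. Shared globin probe sets, an alternative chosen after seeing the data, gave the opposite sign in sham against naive raphe (0.10, 0.89 and 1.24 for alpha, 0.044 for beta), in injured against naive raphe (0.20, 0.29, 1.13 and 0.0084 for alpha, 0.096 for beta) and between the naive regions (-0.87 and -1.49 for alpha).

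Replicate numbers did not pair sham with injured samples: of 34 raphe and 36 cortex pairs of same-numbered sham and injured samples, 1 and 4 had deviations correlated above 0.1. Whether raphe and cortex samples of the same number share an animal was not tested. The comparisons between the regions treated them as separate samples. With the replicate block, 0 members passed in raphe at 7 d (Hba-a1 -1.01, adjusted p = 0.0582), and 199 probe sets in place of 253 passed between sham and naive raphe. Over all probe sets that count ran from 199 to 1132 over the alternatives, from 514 to 2081 in place of 570 for injured against naive raphe, from 39 to 1538 in place of 177 for injured against sham raphe, from 17 to 157 in place of 92 for sham against naive cortex and from 250 to 1143 in place of 375 for injured against naive cortex. Without raphe sham 3 months replicate 2, no type A sham sample is left at that time, so only Hba-a1 and Emcn could be tested. No member has a second probe set of its own, so that alternative was not run. Dim values limit Selp in naive and Pf4 in sham raphe.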

Other observations

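The sham samples taken at 30 min and 72 h belong to no comparison and add single values for the members. In the raphe sample at 30 min by its title, Hbb read 20937 and Hbb-b1 11031, above 10 of the 11 and 9 of the 11 later sham samples. Alas2 read 1267 there and Pf4 295, above the 137.7 that was the highest of the later sham samples. In cortex, Pf4 read 40.7 and 23.5 at 30 min, below the 178 of the lowest naive cortex sample, and 185 at 72 h. Hba-a1 read 36422 in the cortex sham sample at 72 h, inside the naive range.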
